A study of Sus scrofa with 8 samples.

Results

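The genes described here are markers of adipocytes, the fat-storing cells of adipose tissue, as measured in pig heart RNA. The set holds 10 genes, ADIPOQ, LEP, PLIN1, CIDEC, CIDEA, FABP4, LIPE, PNPLA2, CFD and SCD. A member was taken where the deposited table of 18975 genes had a row for it, and 7 of the 10 did. LEP, PLIN1, CIDEC, LIPE and SCD were found under these names, while PNPLA2 (listed as ATGL) and CFD (listed as DF) were found by their gene IDs. ADIPOQ, CIDEA and FABP4 were not analysed here.

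White adipocytes store triglyceride in a large lipid droplet. Perilipin 1 (PLIN1) coats this droplet, CIDEC helps droplets to fuse, and SCD makes the monounsaturated fatty acids that are built into the stored fat. The fat is released by PNPLA2, which takes the first fatty acid off a triglyceride, and by LIPE (hormone-sensitive lipase), which acts on the diglyceride that is left. LEP (leptin) and CFD (adipsin, complement factor D) are secreted proteins. In the heart, fat cells lie mostly under the epicardium, but the lipases also work in heart muscle cells, and CFD is made by macrophages as well.

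The study compared hearts of male pigs of 6 months of age in 4 groups, namely Tibetan pigs in the highlands (TH) and in the lowlands (TL) and Yorkshire pigs in the highlands (YH) and in the lowlands (YL). Each group had 2 RNA-seq libraries, and RNA of 4 pigs went into each of them, so differences within a group are between pools, not animals. The descriptions of both YL samples name the file of TL, and these samples were taken as YL from their titles. Levels are given in FPKM, in which the fragments on a gene are scaled by its length and by a factor of the library. That factor did not simply follow the reads on genes. PNPLA2 had 67.7 FPKM from 2554 reads in TH1 and 84.1 FPKM from 5793 reads in YH2, although TH1 had more reads on genes. Reads on genes ranged from 15687000 to 26723000 per library with a median of 19648000, and FPKM of mitochondrially encoded genes made up 57.7% to 87.6% of each library's sum. All 10 heart muscle cell markers with a row were above 1 FPKM in every library.

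The library YL2 stood apart from the other 7. All 13 kidney markers with a row were more than 2 times as high in YL2 as in any other library, and their summed level was 8825 FPKM there and 0.725 to 17.9 FPKM elsewhere. The heart muscle cell markers summed to 16597 FPKM in YL2, against 28984 to 51035 FPKM in the other 7 libraries. The part of these kidney genes in the values of YL2 below was not tested, and fits of the members, counts of the lists and interactions that include YL are given with and without it.

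The library TH1 also differed from its partner. Mitochondrially encoded genes took the largest share of FPKM in TH1, at 87.6%, and its FPKM summed to 8559104, against at most 4017846 in any other library. The endothelial marker VWF had 1.07 FPKM in TH1 and 22.8 FPKM in TH2, and the collagen gene COL3A1 had 18.2 and 172 FPKM. Fits of members in TH to YH and TH to TL, and the interactions of CFD and LIPE, are therefore also given without TH1. This leaves 1 library in TH, so that its spread is taken from the other groups.

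LEP and PLIN1 are the members most restricted to fat cells. LEP was at or near 0 in these hearts, and PLIN1 was below 0.3 FPKM in all libraries but TL1. LEP (ENSSSCG00000016588, chromosome 18, 21201785 to 21204671 on Sscrofa10.2) was at 0 in 7 libraries, and its level of 0.112 FPKM in YH2 rested on 1 read. A count of 0 allows up to 3 reads, which is 0.112 to 0.191 per 1000000 reads on genes in these libraries, so leptin RNA was not detectable at this depth.

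PLIN1 (ENSSSCG00000001844, chromosome 7, 60126613 to 60139897) had 0.0624 and 0.0284 FPKM in TH1 and TH2, 1.52 and 0.251 FPKM in TL1 and TL2, 0.164 and 0.0874 FPKM in YH1 and YH2, and 0.282 and 0.289 FPKM in YL1 and YL2. TL1 was far above all other libraries, and the TH libraries were the lowest. The values rested on 61 reads in TL1 and on 1 to 16 reads elsewhere. In TL1 the level was 6.07 times that in TL2 (95% interval from the exact binomial distribution of the reads 3.24 to 12.4). Such intervals and limits cover counting error only. PLIN1 reached 1 FPKM in TL1 alone and was therefore not tested.

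CIDEC (ENSSSCG00000011557, chromosome 13, 73216900 to 73223512) had 0.410 and 0.594 FPKM in TH1 and TH2, 1.88 and 0.371 FPKM in TL1 and TL2, 0.392 and 0.232 FPKM in YH1 and YH2, and 0.293 and 1.35 FPKM in YL1 and YL2. TL1 and YL2 were high, and the other 6 libraries lay close together. CIDEC was tested only because of these libraries, the pair that reached 1 FPKM, and both are lowland libraries. Its altitude differences and interaction are therefore descriptions and not tests. TL1 was 5.08 times TL2 (interval 2.75 to 10.1, from 57 and 13 reads), and YL2 was 4.61 times YL1 (interval 2.1 to 12, from 56 and 7 reads).

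SCD (ENSSSCG00000010554, chromosome 14, 120964205 to 120980914) had 1.10 and 1.20 FPKM in TH1 and TH2, 7.48 and 1.78 FPKM in TL1 and TL2, 0.225 and 0.407 FPKM in YH1 and YH2, and 0.249 and 3.78 FPKM in YL1 and YL2. The 4 Tibetan libraries were all above YH1, YH2 and YL1, and YL2 was above every library but TL1. The ratio within a group was 4.19 in TL (interval 3.64 to 4.85, from 889 and 245 reads) and 15.2 in YL (interval 8.80 to 28.6, from 615 and 13 reads), so that libraries of the same group differed by more than counting error.

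The lipases LIPE and PNPLA2 and the secreted CFD were present at higher levels. LIPE (ENSSSCG00000003018, chromosome 6, 45444858 to 45454620) had 8.73 and 4.72 FPKM in TH1 and TH2, 3.36 and 2.12 FPKM in TL1 and TL2, 14.4 and 10.6 FPKM in YH1 and YH2, and 9.85 and 6.29 FPKM in YL1 and YL2. The TL libraries were the lowest and the YH libraries the highest. By group mean the order was YH (12.5 ± 2.71 FPKM, SD, n = 2), YL (8.07 ± 2.51), TH (6.72 ± 2.84) and TL (2.74 ± 0.875), and of the neighbours in this order only YL and TH overlapped.

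PNPLA2 (ENSSSCG00000012841, chromosome 2, 156290 to 161297) had 67.7 and 46.4 FPKM in TH1 and TH2, 55.1 and 56.7 FPKM in TL1 and TL2, 107 and 84.1 FPKM in YH1 and YH2, and 85.5 and 54.5 FPKM in YL1 and YL2. The highest 3 libraries were YH1, YL1 and YH2, and the libraries of TH, TL and YL overlapped. Its group means were 95.4 ± 16.0 FPKM in YH, 70.0 ± 22.0 in YL, 57.0 ± 15.1 in TH and 55.9 ± 1.19 in TL (SD, n = 2), and no neighbours in this order were separated.

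CFD (ENSSSCG00000013418, chromosome 2, 77485871 to 77487847) had 43.5 and 33.2 FPKM in TH1 and TH2, 94.3 and 84.6 FPKM in TL1 and TL2, 92.9 and 114 FPKM in YH1 and YH2, and 89.4 and 65.2 FPKM in YL1 and YL2. Both TH libraries were below all the others. The group means were 103 ± 14.6 FPKM in YH, 89.5 ± 6.82 in TL, 77.3 ± 17.1 in YL and 38.4 ± 7.24 in TH (SD, n = 2). YL and TH did not overlap, whereas YH overlapped with TL, and TL with YL. The order of the group means of LIPE, PNPLA2 and CFD was the same with YL1 alone in YL, and LIPE in YL1 was above both TH libraries.

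**Figure D1:**
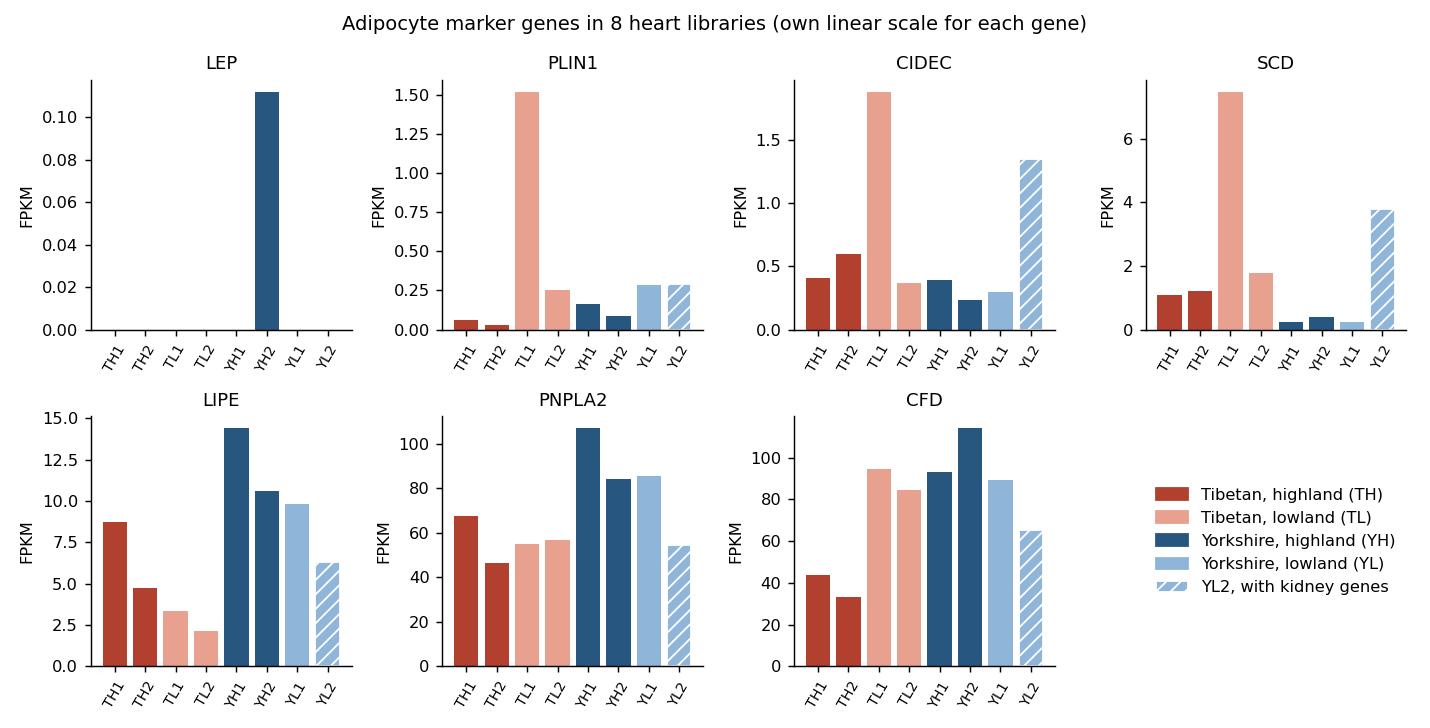
Bars give FPKM (y axis, linear from 0, with its own scale in each panel) of the 7 members with a row in each of the 8 libraries (x axis), coloured by group, with YL2 hatched. TL1 reached 1.52, 1.88 and 7.48 FPKM for PLIN1, CIDEC and SCD, while CFD was at 43.5 and 33.2 FPKM in the TH libraries and at 65.2 to 114 FPKM in the others.

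The members covered a wide range of levels. Ranked among the genes above 0 FPKM of each library, PNPLA2 and CFD lay between percentiles 90.5 and 96.7 and LIPE between 44.2 and 81.2. SCD lay between percentiles 16.4 and 69.8, CIDEC between 17.0 and 42.0 and PLIN1 between 2.0 and 38.5. The mean over 8 libraries was at least 1 FPKM for 4 members, namely CFD, PNPLA2, LIPE and SCD, and these were the same 4 without YL2. Over the 7 libraries without YL2, the highest library was 53.5 times the lowest for PLIN1, 33.3 times for SCD, 8.11 times for CIDEC, 6.79 times for LIPE, 3.42 times for CFD and 2.30 times for PNPLA2.

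Differences between groups were tested with limma on log2(FPKM + 1) in 1 fit of all 8 libraries. Genes below 1 FPKM in all libraries or all but 1 were left out, and of the 11913 that remained 5 were members (CIDEC, SCD, LIPE, PNPLA2 and CFD). CIDEC passed through lowland libraries alone and stays in the counts of members, but its altitude fits are no tests. A gene was called where the Benjamini-Hochberg adjusted p was under 0.01 and its log2 fold change exceeded 1 in size. On this scale the fold changes of weakly expressed genes are understated. An exact permutation test of 2 libraries against 2 cannot give a two-sided p under 0.333.

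None of the 5 members tested was called by limma in any comparison, against 0.0336% of all genes in TH to YH, 0.00839% in TL to YL, 0.0504% in TH to TL, 0% in YH to YL and 0.0336% in the interaction, which is the altitude difference of Tibetan pigs minus that of Yorkshire pigs. At an unadjusted p under 0.05, limma gave 2 members in TH to YH, 1 in TL to YL, 2 in TH to TL, 0 in YH to YL and 1 in the interaction. CIDEC was not among them. The shares of all genes tested at that p were 16.2%, 8.94%, 11.3%, 5.97% and 10.9% in the same order.

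Breed in the highlands was addressed by TH to YH. CFD, LIPE and PNPLA2 were lower in both TH libraries than in both YH libraries, and CIDEC and SCD were higher. In FPKM the groups thus did not overlap for any of the 5 members, against 52.5% of all genes tested. For CIDEC this separation lay within counting error, with 0.41 FPKM from 11 reads in TH1 and 0.392 FPKM from 12 reads in YH1. Their 95% Poisson limits were 0.204 to 0.733 and 0.203 to 0.685 FPKM. Relative to reads on genes, CIDEC in TH1 lay between YH2 and YH1, so that the groups overlapped. The log2 fold change was -1.41 (SE 0.26, limma adjusted p = 0.0974) for CFD, with an adjusted p of 0.0498 without YL2, 0.0496 without YL1 and 0.0709 to 0.487 without another library. Without TH1 it was -1.60 (adjusted p = 0.251). It was -0.84 (SE 0.36, adjusted p = 0.310) for LIPE and -0.75 (SE 0.31, adjusted p = 0.304) for PNPLA2. Both rested on which TH library was used, as LIPE had -1.22 (adjusted p = 0.435) without TH1 and -0.46 (adjusted p = 0.463) without TH2, and PNPLA2 had -1.02 (adjusted p = 0.473) and -0.48 (adjusted p = 0.399). The log2 fold changes were 0.71 (SE 0.71, adjusted p = 0.640) for SCD and 0.19 (SE 0.42, adjusted p = 0.846) for CIDEC, which in both groups was at 0.594 FPKM or less. Without TH1 these were 0.75 (adjusted p = 0.913) and 0.28 (adjusted p = 0.959).

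Breed in the lowlands was addressed by TL to YL. LIPE was lower in both TL libraries than in both YL libraries, and the other 4 members overlapped. Over all genes tested, 41.5% did not overlap. The log2 fold change of LIPE was -1.27 (SE 0.36, limma adjusted p = 0.343) and -1.56 (SE 0.40, adjusted p = 0.297) without YL2. SCD had 0.99 (SE 0.71, adjusted p = 0.735) with all libraries and 1.96 (SE 0.60, adjusted p = 0.373) without YL2. It was 0.02 (SE 0.60) without YL1, 0.19 without TL1 and 1.80 without TL2, so that the value rested on which library of either group was used.

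Altitude in Tibetan pigs was addressed by TH to TL. CFD was lower and LIPE higher in both TH libraries than in both TL libraries, SCD was lower in TH, and PNPLA2 and CIDEC overlapped. Over all genes tested, 48.5% did not overlap. The log2 fold changes were -1.21 (SE 0.26, limma adjusted p = 0.213) for CFD and 1.02 (SE 0.36, limma adjusted p = 0.355) for LIPE. SCD had -1.18 (SE 0.71, adjusted p = 0.579), with -0.37 without TL1 and -1.98 without TL2. PNPLA2 had 0.00 (SE 0.31). Without TH1, CFD had -1.40, SCD -1.14 and PNPLA2 -0.26. No altitude fit is given here for CIDEC, which passed the filter through lowland libraries alone. LIPE had 0.63 (adjusted p = 0.735) without TH1 and 1.40 (adjusted p = 0.123) without TH2.

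Altitude in Yorkshire pigs was addressed by YH to YL. LIPE and CFD were higher in both YH libraries than in both YL libraries, while the other 3 members overlapped. Over all genes tested, 36.3% did not overlap. The log2 fold change was 0.59 (SE 0.36, limma adjusted p = 0.784) for LIPE and 0.42 (SE 0.26, limma adjusted p = 0.784) for CFD. Without YL2 these were 0.30 (SE 0.40) and 0.20 (SE 0.27), and SCD moved from -0.90 (SE 0.71) to 0.07 (SE 0.60).

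**Figure D2:**
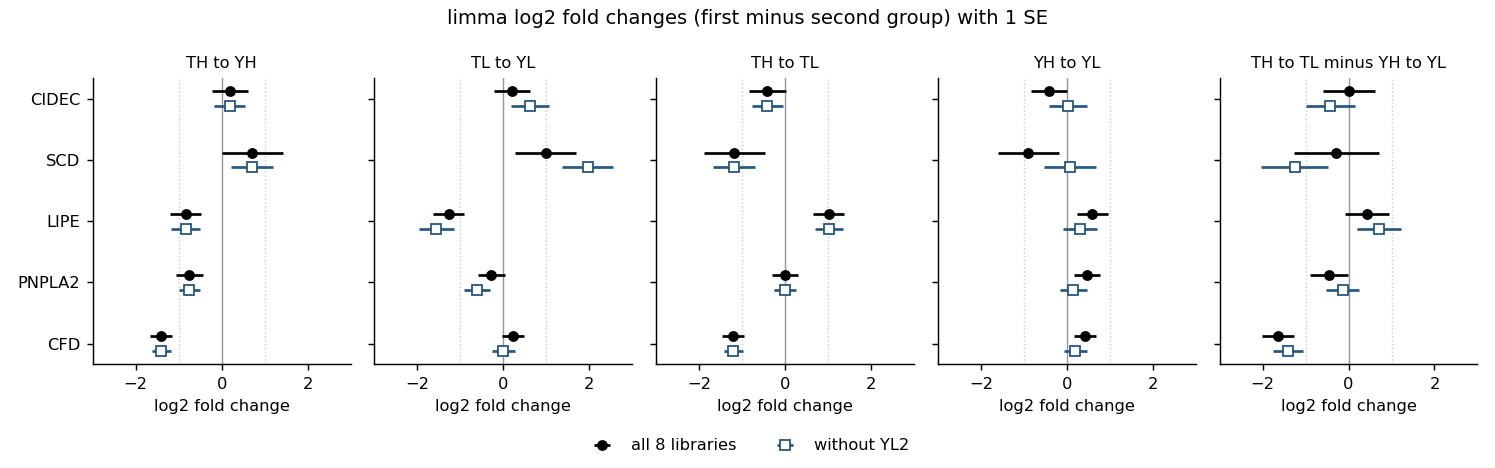
Points give the limma log2 fold change (x axis, first minus second group of the panel title, or the interaction) of the 5 members tested (y axis), with bars of 1 SE, from all 8 libraries (filled circles) and without YL2 (open squares); dotted lines mark a size of 1. CFD had -1.41 in TH to YH and -1.21 in TH to TL, and SCD moved from 0.99 to 1.96 in TL to YL without YL2. CIDEC passed the filter through lowland libraries alone, so its altitude and interaction points are descriptions.

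In FPKM, CFD was the only one of the 5 members whose altitude groups were separated in opposite directions in the breeds, lower in TH than in TL and higher in YH than in YL. Of all genes tested, 11.3% showed such opposite separation. Per 1000000 reads on genes PNPLA2 was separated in this way as well, with 95.6 and 127 in TH1 and TH2, 143 and 142 in TL1 and TL2, 279 and 295 in YH1 and YH2, and 176 and 172 in YL1 and YL2. The 11.3% refers to FPKM, and the share of all genes on the scale of reads was not computed. The interaction of CFD had a log2 fold change of -1.64 (SE 0.37, limma adjusted p = 0.289), with -1.41 (SE 0.35, adjusted p = 0.255) without YL2 and -1.86 (SE 0.35, adjusted p = 0.0363) without YL1, where YL2 with its kidney genes stands alone for YL, and -1.82 (adjusted p = 0.472) without TH1. LIPE differed in the same direction with altitude in both breeds, higher in the highlands, and its interaction was 0.43 (SE 0.51, adjusted p = 0.750) and 0.71 (SE 0.52, adjusted p = 0.558) without YL2. It was 0.04 (adjusted p = 0.984) without TH1, 0.14 without YL1 and 0.81 without TH2.

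The C1q chains among the macrophage markers were also low in TH, and the list was read because macrophages make CFD. The 9 macrophage markers with a row summed to 44.8 and 68.4 FPKM in TH1 and TH2 and to 74.9 to 131 FPKM in the other 6 libraries, and 8 of the 9 were above 1 FPKM in every library. C1QA, a chain of complement C1q, had 4.49 and 13.1 FPKM in TH1 and TH2 and 22.9 to 45.5 FPKM elsewhere. C1QC had 6.17 and 20.4 FPKM in TH1 and TH2 and 22.9 to 53.3 FPKM elsewhere. These C1q chains made up most of the sum in the other 6 libraries. CSF1R had 1.44 and 2.74 FPKM in TH1 and TH2, 2.67 FPKM in YL2 and 2.96 to 6.06 FPKM in the other 5 libraries, and CD68, CD14, AIF1 and LYZ were not low in both TH libraries. CD68 had 5.39 and 5.95 FPKM in TH1 and TH2 against 2.89 and 2.6 FPKM in TL1 and TL2, CD14 had 7.55 and 7.9 against 6.54 and 3.78 FPKM, and AIF1 had 16.8 and 7.34 against 9.35 and 9.75 FPKM. In YH1 and YH2, CD68 had 3.63 and 6.43 FPKM, CD14 had 5.31 and 8.32 FPKM, and AIF1 had 10.4 and 17 FPKM. LYZ was highest in TH2 with 7.83 FPKM, and MRC1 was lowest in TH1 with 1.22 FPKM. Of the 8 markers tested, 2 were higher and 6 lower in TH than in YH by the fitted value, with a median log2 fold change of -0.54 and 3 lower at an unadjusted p under 0.05 in limma. In TH to TL 4 were higher and 4 lower, with a median of -0.19 and 1 higher and 3 lower at that p. In the interaction 4 were higher and 4 lower, with a median of -0.52 and 3 lower at that p, and without YL2 it had 2 higher and 6 lower, a median of -0.58 and 3 lower at that p. The part of macrophages in the CFD values was not tested. In bulk RNA, fewer cells of a type and less RNA per cell cannot be told apart.

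Most endothelial markers had low levels in TH1. Of the 9 endothelial markers with a row, all of them tested, 8 were lowest in TH1 among the 7 libraries without YL2. PECAM1, an adhesion protein of endothelium, was the exception, with 96.8 and 84.5 FPKM in TH1 and TH2 and 35.7 to 81.9 FPKM elsewhere. CD36, a fatty acid carrier that heart muscle also makes, was the highest of the list, with 208 and 287 FPKM in TH1 and TH2. FLT1, a receptor of vascular growth factors, had 1.38 and 8.17 FPKM in TH1 and TH2, and EMCN, an endothelial surface protein, had 6.72 and 22.2 FPKM. By the fitted value 1 marker was higher and 8 lower in TH to YH, 1 was higher and 8 lower in TH to TL, and 0 were higher and 9 lower in the interaction. The medians of these log2 fold changes were -0.67, -0.50 and -1.09. Over all genes tested they were -0.03, -0.02 and -0.01. At an unadjusted p under 0.05, limma gave 0 of these markers in each of the 3. Without YL2, PECAM1 was higher in TH to YH at that p and TIE1 lower in the interaction, which had 1 marker higher and 8 lower and a median of -0.86. VWF, FLT1, EMCN and TIE1 were named after their values were seen, and the part of the list in the TH values of CFD, LIPE and PNPLA2 was not tested.

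The summed level of the blood markers, most of it from HBB and HBA, was highest in TH. The 8 with a row summed to 3101 and 1631 FPKM in TH1 and TH2 and to 526 to 1403 FPKM elsewhere. The haemoglobin chain HBB had 1708 and 876 FPKM in TH1 and TH2 and 290 to 649 FPKM elsewhere, and HBA had 1376 and 745 FPKM in TH1 and TH2 and 231 to 754 FPKM elsewhere. S100A8 and S100A9 were highest in YH2 with 1.96 and 1.53 FPKM, and PF4 was at 0 in both TH libraries. Of the 5 tested, S100A8 reached 1 FPKM in highland libraries alone and is left out here. The other 4 were all higher in TH to YH and in TH to TL by the fitted value, 3 and 2 of them at an unadjusted p under 0.05, with medians of 1.10 and 0.77. Over all genes tested, 16.2% and 11.3% passed that p in TH to YH and TH to TL, and the medians were -0.03 and -0.02. The part of the blood markers in the TH values of CFD, LIPE and PNPLA2 was not tested.

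Some genes of atrial muscle also separated TH from the other groups. The 6 atrial markers with a row summed to 6620 and 5391 FPKM in TH1 and TH2 and to 406 to 2615 FPKM elsewhere. NPPA, the atrial natriuretic peptide, had 2263 and 2146 FPKM in TH1 and TH2 and 23.1 to 108 FPKM elsewhere. NPPA, MYL7 and SLN were each higher in both TH libraries than in any other, while MYL4, NR2F2 and GJA5 overlapped with other groups, with 7.59 and 6.73, 5.49 and 6.74, and 4.06 and 8.09 FPKM in TH1 and TH2. The part of these genes in the TH values of CFD, LIPE and PNPLA2 was not tested.

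The library TL1 carried the highest level of 3 of the 7 members. PLIN1, CIDEC and SCD were each more than 2 times as high in TL1 as in any other of the 7 libraries without YL2, a feature chosen after the values were seen. Of the 11913 genes tested, 28 (0.235%) were that high in TL1. The difference between TL1 and TL2 on the log2(FPKM + 1) scale was 1.01 for PLIN1, 1.07 for CIDEC and 1.61 for SCD, and 1.97%, 1.71% and 0.739% of the genes tested differed by as much between these libraries, with a median of 0.14. PLIN1 was not among the genes tested, and CIDEC was among them only through TL1 and YL2. The shares given here are therefore descriptions and no background for PLIN1 and CIDEC. For LIPE, PNPLA2 and CFD the difference between TL1 and TL2 was 0.48, 0.04 and 0.15.

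Some markers of mesothelium, the cell layer on the surface of the heart, were high in TL1 as well, and the 3 given first here were chosen after their values were seen. MSLN had 0.822 FPKM in TL1, 0.0234 FPKM in TL2 and at most 0.183 FPKM in the other 5 libraries besides YL2. UPK3B had 1.40 FPKM in TL1, 0.0558 FPKM in TL2 and at most 0.313 FPKM in those 5, and the keratin KRT19 had 1.07, 0.0436 and at most 0.569 FPKM. These 3 markers were highest in TL1 among the 7 libraries, and TL1 led in 4 of the 11 mesothelial and epicardial markers with a row.

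The summed level of the 11 markers was 14.7 FPKM in TL1, within the 8.45 to 15.5 FPKM of the 7 libraries, and BNC1 was at 0 in all 7. KRT8 and ALDH1A2, the highest markers of that list, had 2.1 and 4.76 FPKM in TL1, inside the range of the other libraries. The fibroblast markers summed to 798 FPKM in TL1, 628 FPKM in TL2 and 205 to 679 FPKM in the other libraries. The part of these cell types in the TL1 levels of PLIN1, CIDEC and SCD was not tested.

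**Figure D3:**
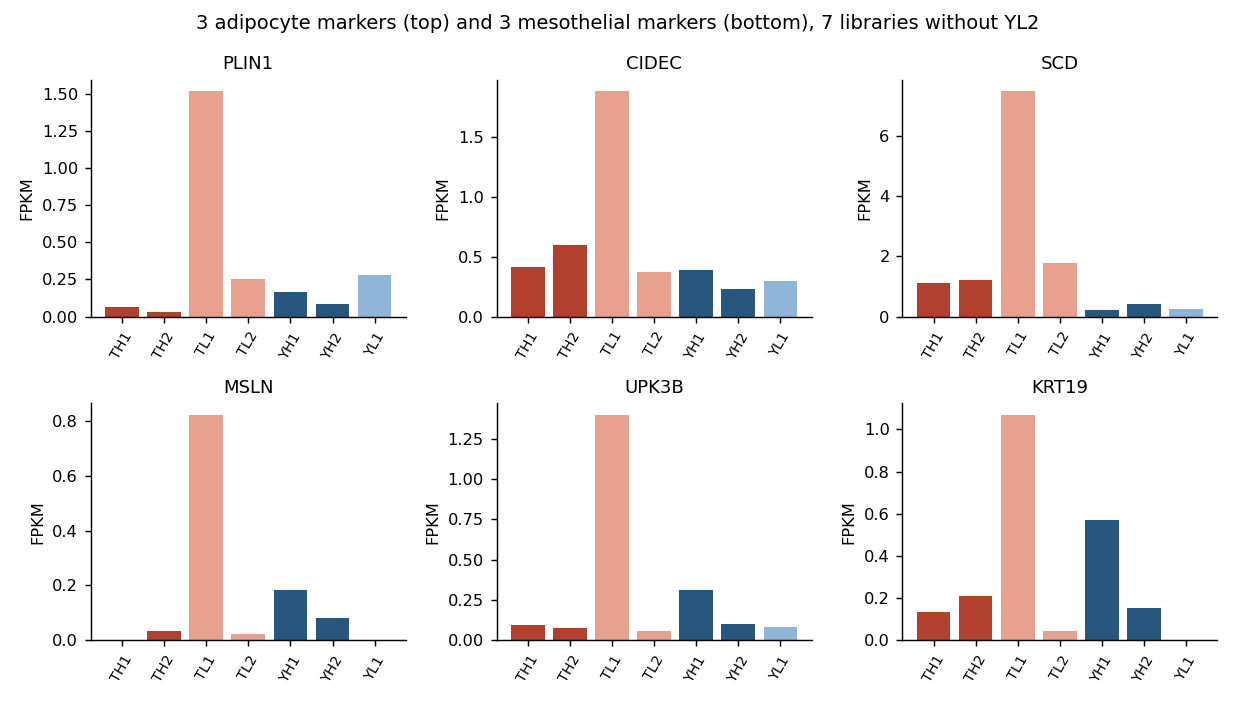
Bars give FPKM (y axis, linear from 0, own scale in each panel) of PLIN1, CIDEC and SCD in the top row and of the mesothelial markers MSLN, UPK3B and KRT19 in the bottom row, in the 7 libraries without YL2 (x axis, coloured by group). All 6 genes were highest in TL1, with 1.52, 1.88 and 7.48 FPKM in the top row and 0.822, 1.40 and 1.07 FPKM in the bottom row.

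In YL2 the members did not move together. CIDEC and SCD were 4.61 and 15.2 times as high as in YL1, PLIN1 was at 1.02 times, and LIPE, PNPLA2 and CFD were lower than in YL1, at 6.29 against 9.85, 54.5 against 85.5 and 65.2 against 89.4 FPKM. Per 1000000 reads on genes these members were at 30.6 against 31.5, 172 against 176 and 88.8 against 80.3 in YL2 and YL1, so that LIPE and PNPLA2 differed less on that scale and CFD was higher in YL2. The mesothelial markers MSLN and UPK3B were at 0.353 and 0.224 FPKM in YL2. Some keratins were highest there, with 14.1 FPKM of KRT19 and 33.9 FPKM of KRT8.

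The genes whose levels followed CIDEC most closely were sought over the 7 libraries without YL2 among 6411 genes with a mean of at least 5 FPKM, as CIDEC was the only member of the fat-restricted ones that passed the filter. The 8 highest Pearson correlations (0.961 each) belonged to small RNA genes such as SNORA63, SNORD21, SNORD24 and U6 and rested on 1 to 5 reads each. These genes, like 12 in all, were above 0 in TL1 alone, and no correlation could be computed without TL1. Among the 6280 genes above 0 in each of the 7 libraries, a setting chosen after seeing the data, DVL2 (r = 0.951), NR4A2 (0.887) and BPNT1 (0.852) were among the closest. Without TL1 these were 0.659, 0.732 and 0.748 over 6 libraries, and over all 8 libraries they were 0.941, 0.552 and 0.786. All points share library depth and the high TL1 library, so these are descriptions of which genes were high there.

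Other genes of fat storage and release were read from fixed lists. None of these genes was called by limma in the 4 comparisons or the interaction, also without YL2, and the counts below are those at an unadjusted p under 0.05. They stand beside 16.2% of all genes tested in TH to YH, 8.94% in TL to YL, 11.3% in TH to TL and 5.97% in YH to YL, and without YL2 beside 22.7%, 9.72%, 17.1% and 5.45% in the same order. YL2 bears on TH to YH and TH to TL only through the common spread, and these counts without it are given where they changed. Genes of the lists that are not among the highest by mean level were chosen after their values were seen. Genes that reached 1 FPKM in libraries of 1 breed or of 1 altitude alone were left out of these counts and medians, a choice made after seeing the data. They were PNPLA3, LDAH, MOGAT1, C1QTNF3, UCP3, DIO2 and TMEM26. Of the 18 lipid droplet and lipolysis genes outside the members, 16 had a row, 15 were tested and 13 were counted. In TH to YH, 2 were higher and 4 lower in TH. In TL to YL, 2 were higher and 2 lower in TL. In TH to TL, 3 were higher and 1 lower in TH, and in YH to YL, 4 were higher and 0 lower in YH. Without YL2 these were 1 higher and 2 lower in TL to YL and 3 higher and 0 lower in YH to YL, with 3 higher and 4 lower in TH to YH and 4 higher and 1 lower in TH to TL. The median log2 fold changes of the list were -0.24, 0.06, 0.12 and 0.47 in this order, beside -0.03, 0.02, -0.02 and 0.03 over all genes tested. Without YL2 the medians of TL to YL and YH to YL were -0.05 and 0.35.

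By mean level the leading genes of this list were CAV1, MGLL, FITM1 and FITM2, which serve the caveolae of the cell membrane, the last step of fat breakdown and the formation of droplets. CAV1 had 112 to 196 FPKM in the 7 libraries and 44.9 FPKM in YL2, and MGLL had 61.1 to 124 FPKM and 49.8 FPKM. Both were at their lowest in YL2. FITM1 had 132 and 83.9 FPKM in TH1 and TH2 and 56.9 and 65.4 FPKM in YH1 and YH2, and FITM2 had 26.1 and 58.9 FPKM in TH1 and TH2 and 117 and 79.0 FPKM in YH1 and YH2, so that they were separated in opposite directions.

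The other perilipins were singled out after their values were seen. PLIN3 had 7.16 to 11.2 FPKM over all 8 libraries. PLIN5, the coat of droplets in oxidative muscle, had 18 and 11.7 FPKM in TH1 and TH2, 3.02 and 2.2 FPKM in TL1 and TL2, 14.9 and 6.15 FPKM in YH1 and YH2, and 3.51 and 23.2 FPKM in YL1 and YL2. Its TH libraries were above its TL libraries, and YL2 was the highest. PLIN4, a droplet coat of muscle and fat, had 2.65 and 3.58 FPKM in TH1 and TH2, 8.92 and 9.33 FPKM in TL1 and TL2, 9.24 and 9.02 FPKM in YH1 and YH2, and 5.27 and 5.78 FPKM in YL1 and YL2. As for CFD, the TH libraries were lowest, and the altitude groups were separated in opposite directions in the breeds. The log2 fold changes were -1.31 (SE 0.20, adjusted p = 0.0691) in TH to YH, -1.31 (SE 0.20, adjusted p = 0.119) in TH to TL, 0.63 (SE 0.20, adjusted p = 0.408) in TL to YL and 0.64 (SE 0.20, adjusted p = 0.764) in YH to YL. Without YL2 the last 2 were 0.69 and 0.69, and without TH1 the first 2 were -1.14 and -1.14.

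PLIN2, the droplet coat found in most cell types, had 8.45 and 10.1 FPKM in TH1 and TH2, 1.40 and 2.33 FPKM in TL1 and TL2, 24.6 and 23.9 FPKM in YH1 and YH2, and 5.95 and 21.2 FPKM in YL1 and YL2. The TL libraries were the lowest, opposite to the high PLIN1 level of TL1. The log2 fold change was 1.86 (SE 0.51, adjusted p = 0.272) in TH to TL and -2.13 (SE 0.51, adjusted p = 0.284) in TL to YL. With a library left out, TH to TL ranged from 1.62 to 2.09, and it was 1.98 without TH1. Without YL2 the value of TL to YL was -1.30. Without YL1, which leaves YL2 with its kidney genes alone in YL and takes its spread from the other groups, PLIN2 passed the threshold at -2.97 (adjusted p = 0.00248), in a fit that called 305 genes in TL to YL against 1 with all libraries.

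AQP7, a channel through which fat cells and heart muscle move glycerol, was also chosen after its values were seen. It had 15.4 and 11.3 FPKM in TH1 and TH2, 7.35 and 11.9 FPKM in TL1 and TL2, 50.4 and 32.0 FPKM in YH1 and YH2, and 31.2 and 22.5 FPKM in YL1 and YL2. The 4 Tibetan libraries were all below the 4 Yorkshire libraries, as was LIPE at each altitude. The log2 fold change was -1.53 (SE 0.34, adjusted p = 0.134) in TH to YH and -1.41 (SE 0.34, adjusted p = 0.296) in TL to YL. Without TH1 the former was -1.74, and without YL2 the latter was -1.64.

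Of the 20 genes of lipogenesis and triglyceride synthesis, 17 had a row, 16 were tested and 15 were counted. In TH to YH, 2 were higher and 0 lower in TH, in TL to YL 1 was higher and 0 lower in TL, and in TH to TL and YH to YL none passed an unadjusted p under 0.05 in limma. Without YL2, 3 were higher and 0 lower in TL to YL and 1 was higher and 1 lower in YH to YL, with 0 higher and 1 lower in TH to TL. The median log2 fold changes were -0.17, 0.29, -0.28 and 0.18, and 0.54 and 0.36 in TL to YL and YH to YL without YL2. AGPAT2, an enzyme of triglyceride assembly, was the highest with 38.2 to 71.0 FPKM in the 7 libraries, followed by GPD1 with 15.5 to 37.4 FPKM. The fatty acid synthase FASN, which supplies the substrate of SCD, was highest in TL1 among the 7 libraries with 5.80 FPKM, against 3.38 FPKM in TL2. TL1 led in 5 of the 17 genes of this list and was more than 2 times the others in 0 of them. In YL2 the list was dominated by PCK1, an enzyme of kidney and liver, at 1499 FPKM against at most 0.970 FPKM in the other libraries.

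Transcription factors of fat cell formation were mostly at a few FPKM. Of 13 adipogenic regulators, 11 had a row and 9 were tested, and at an unadjusted p under 0.05 in limma only KLF15 passed, lower in YH than in YL (6.10 and 12.9 against 23.1 and 15.8 FPKM). Without YL2 the counts of TL to YL and YH to YL were the same. PPARG, the master regulator of adipocytes, had 1.71 to 2.82 FPKM in the 7 libraries and 1.39 FPKM in YL2, and CEBPA had 0.528 to 1.82 FPKM and 5.35 FPKM. PPARG thus varied far less between libraries than PLIN1, and its level in TL1 was 2.12 FPKM, between those of the other libraries. CEBPD was the highest of the list with 25.6 to 53.1 FPKM.

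Among 15 adipokines outside the members, 13 had a row, 9 were tested and 8 were counted. At an unadjusted p under 0.05 in limma, 2 were higher and 1 lower in TL than in YL and 2 were higher and 1 lower in TH than in TL, with 0 in TH to YH and YH to YL. Without YL2, 3 were higher and 0 lower in TL to YL and 0 higher and 1 lower in YH to YL, with 2 higher and 0 lower in TH to YH and 2 higher and 2 lower in TH to TL. The adipokines RETN and TNMD were at 0 in 5 or more of the 7 libraries without YL2, as LEP was. RARRES2 (chemerin) had 13.0 to 24.8 FPKM in the 7 libraries and 366 FPKM in YL2. ANGPTL4, an inhibitor of lipoprotein lipase, had 21.5 and 10 FPKM in TH1 and TH2 against 3.16 and 3.42 FPKM in TL1 and TL2. Its log2 fold change was 1.88 (SE 0.42, limma adjusted p = 0.220), or 1.36 without TH1, and this gene was named after its values were seen.

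Receptors of fat cell hormones differed widely in level. Of 16 such genes, 12 had a row and 10 were tested, of which 1 was higher and 2 lower in TH than in YH at an unadjusted p under 0.05, 1 higher and 1 lower in TH than in TL, 1 higher and 0 lower in YH than in YL, and 0 in TL to YL. Without YL2, 0 were higher and 2 lower in TL to YL, and 0 passed in YH to YL. ADIPOR1, a receptor of adiponectin, had 26.8 to 35.9 FPKM in the 7 libraries and 27.7 FPKM in YL2, and CDH13, which binds adiponectin, had 93.5 to 137 FPKM and 39.5 FPKM. The leptin receptor LEPR was at most 0.401 FPKM in any library.

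Of 13 genes of brown and beige adipocytes, 10 had a row, 9 were tested and 6 were counted. Of these, 0 were higher and 1 lower in TH than in YH at an unadjusted p under 0.05, 0 higher and 1 lower in TL than in YL, 0 in TH to TL, and 1 higher and 0 lower in YH than in YL. Without YL2, 1 was higher and 1 lower in TL to YL and 2 were higher and 0 lower in YH to YL, with 1 higher and 0 lower in TH to TL. COX7A1 and CPT1B, which heart muscle also uses, led the list with 2339 to 4383 and 114 to 207 FPKM in the 7 libraries. UCP3, a mitochondrial carrier of muscle and brown fat, had 0.264 and 0.0831 FPKM in TH1 and TH2, 0.0477 and 0.132 FPKM in TL1 and TL2, 3.08 and 2.63 FPKM in YH1 and YH2, and 1.09 and 0.682 FPKM in YL1 and YL2. All Tibetan libraries were below all Yorkshire libraries. UCP3 was chosen after its values were seen and passed the filter through Yorkshire libraries alone, so no test is given for it.

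**Figure D4:**
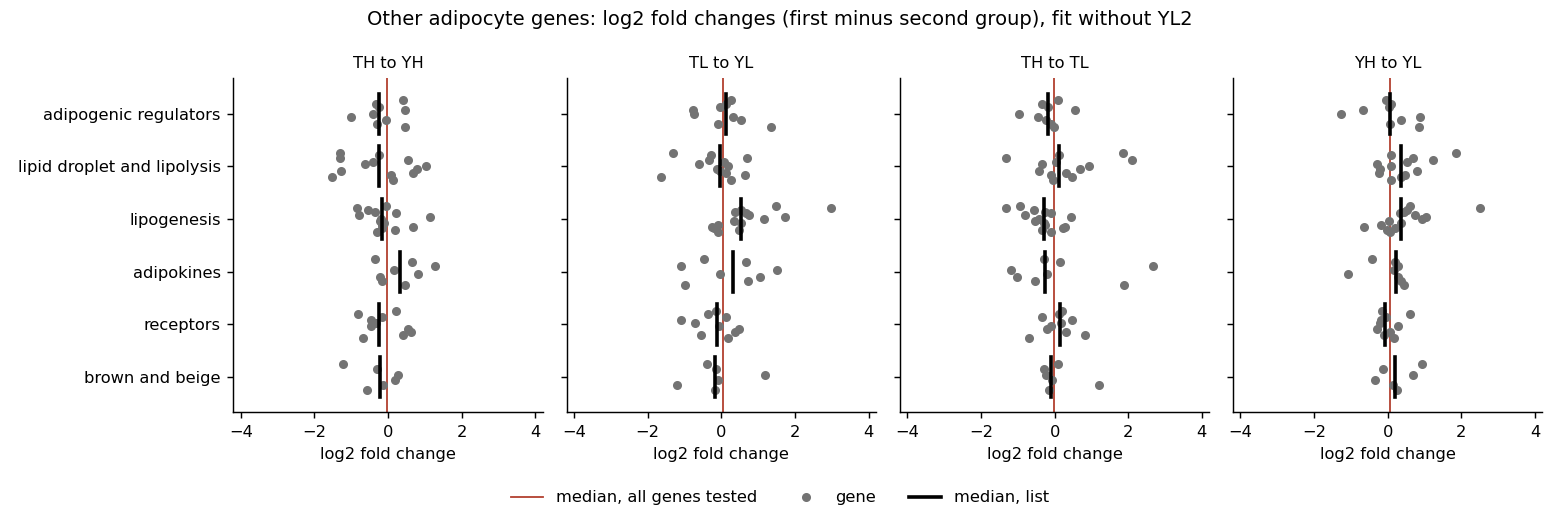
Points give the limma log2 fold change (x axis, first minus second group, fit without YL2) of each gene tested in the 6 lists of other adipocyte genes (y axis, without the 7 genes left out of the counts), with the median of each list as a black bar and the median of all genes tested as a red line. Points lay on both sides of 0 in each list, and the list medians ranged between -0.28 (lipogenesis, TH to TL) and 0.54 (lipogenesis, TL to YL).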

How the data were processed

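Total RNA of heart was sequenced in 8 libraries. Per their methods and the submitters' processing notes, the authors used TopHat2 2.0.9 and Bowtie 0.12.5 for alignment to the pig genome Sscrofa10.2, computed FPKM with Cufflinks and tested counts with DESeq 1.10.1. The deposited table holds FPKM for 18975 genes. It also holds a signal per library, which the authors made by scaling the reads on each gene by 1 factor, and 99.8% of its low values became whole numbers of reads (tolerance 0.1) when divided by the smallest step. This signal gave depth and reads only. Strand and multi-mapping rules of the counting are not given in the sources used here.

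Groups were taken from the sample titles. FPKM were compared with limma 3.58.1 (R 4.3.3) on log2(FPKM + 1) with a variance trend, a term per group and no block, on 11913 genes, with Benjamini-Hochberg adjustment over all of them and 4 residual degrees of freedom. The script was tested on simulated data. Of the lists, the genes named were at most 4 per list by mean FPKM over 7 libraries, 2 per cell type, the 8 closest to CIDEC, and others that were chosen after their values were seen. A gene that this rule names is not reported here. The members and lists were chosen with earlier results of these data known. The alternatives were other pseudocounts, filters, scalings, moderation, thresholds, a replicate term and left-out libraries. The endothelial, smooth muscle, blood, skeletal muscle, liver and lung marker lists were computed as well. Tables and figures used Python 3.11.15 with pandas 2.3.3, scipy 1.17.1 and matplotlib 3.10.9.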

Additional observations from a re-analysis of the deposited data

Results flagged for a closer look

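Effects of altitude or breed in opposite directions were flagged for CFD among the members and for PLIN4 and CEBPD among the named genes of the adipocyte lists. CFD was lower in TH than in TL and higher in YH than in YL without overlap, and the limma interaction had a log2 fold change of -1.64 (SE 0.37, limma adjusted p = 0.289), or -1.41 (adjusted p = 0.255) without YL2. PLIN4 was lower in TH than in TL and in YH and higher in YH and in TL than in YL, and its interaction was -1.94 (SE 0.28, limma adjusted p = 0.198), or -2.00 (adjusted p = 0.139) without YL2. CEBPD was higher in TH than in YH and lower in TL than in YL, and its interaction was 0.99 (SE 0.46, limma adjusted p = 0.491), or 1.22 (adjusted p = 0.377) without YL2. None of the 3 passed the adjusted threshold. Named genes of the cell type marker lists were not flagged here. Some of them, such as VWF, CSF1R, KRT8 and SLN, also had breeds separated in opposite directions in the highlands and the lowlands.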

How the results depend on the processing

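The count of members called by limma was 0 in each comparison and stayed at 0 in all 84 counts under the alternatives, and the number of members with a mean of at least 1 FPKM stayed at 4. Of 380 log2 fold changes of members under the alternatives, 16 turned in sign, in 8 of the 25 combinations of member and comparison. PNPLA2 in TH to TL went from 0.00 to -0.10 with median-ratio scaling and to -0.18 when scaled to the nuclear sum, and from -0.26 to 0.27 with a library left out. The other turns came with left-out libraries: CIDEC ranged from -0.35 to 0.73 in TL to YL, -0.94 to 0.13 in TH to TL, -0.84 to 0.02 in YH to YL and -0.53 to 0.54 in the interaction, PNPLA2 from -0.61 to 0.04 in TL to YL, and SCD from -1.86 to 0.07 in YH to YL and -1.25 to 0.69 in the interaction. The cause was not tested. As CIDEC passed the filter through lowland libraries alone, its altitude and interaction values are descriptions. Scaling to the nuclear sum moved the median of all genes in TH to YH from -0.03 to -0.14 and in TH to TL from -0.02 to -0.15. Genes called numbered 4, 1, 6, 0 and 4 in the 4 comparisons and the interaction, 9, 3, 12, 1 and 6 with that scaling, 2 in TL to YL and 11 in TH to TL in fits of only the libraries compared, 1 in YH to YL with a pseudocount of 0.1, and 31 in TH to YH and 12 in TH to TL at an adjusted p under 0.05. With a library left out they ranged from 3 to 6, 1 to 305, 4 to 13, 0 to 305 and 4 to 152, the highest in both YL comparisons and the interaction without YL1. With the replicate block, 0 members and 3, 1, 4, 0 and 4 genes were called. Libraries with the same number correlated at -0.0844 to 0.118 in their deviations from the group means, so the numbers were not taken as pairs. Each group had 2 pools, and the PLIN1 values rested on 1 to 61 reads each.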

Other observations

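Relative to reads on genes, which does not depend on the FPKM scaling of each library, PNPLA2 had 95.6 and 127 per 1000000 reads in TH1 and TH2, 143 and 142 in TL1 and TL2, 279 and 295 in YH1 and YH2, and 176 and 172 in YL1 and YL2. On this scale the TH libraries were below the TL libraries and the YH libraries above the YL libraries without overlap. In FPKM, TH overlapped with TL and YH with YL. CFD had 27.4 and 38.2 per 1000000 reads in TH1 and TH2, 106 and 90.9 in TL1 and TL2, 104 and 168 in YH1 and YH2, and 80.3 and 88.8 in YL1 and YL2, with the TH libraries again the lowest. LIPE had 20.1 and 19.5 in TH1 and TH2, 13.8 and 8.25 in TL1 and TL2, 57.9 and 52.7 in YH1 and YH2, and 31.5 and 30.6 in YL1 and YL2. LIPE in TH1 and TH2, and LIPE and PNPLA2 in YL1 and YL2, thus lay closer together than in FPKM. CFD was higher in YL2 than in YL1. No test was made on this scale, and the share of all genes separated on it was not computed. Reads on genes include those on mitochondrially encoded genes, whose share of FPKM differed between libraries.

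Marker lists of other cell types gave the following summed levels over the 7 libraries without YL2 and in YL2. Endothelial markers summed to 336 to 643 FPKM and to 215 FPKM in YL2, and smooth muscle and pericyte markers to 244 to 483 FPKM and 140 FPKM. Skeletal muscle markers summed to 10567 to 31308 FPKM and 7060 FPKM, of which ACTA1, an actin that heart muscle also makes, held the most. Liver markers summed to 13.8 to 31.8 FPKM and to 175 FPKM in YL2, and lung markers to 1.98 to 3.25 FPKM and 1.62 FPKM.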
